A study of Homo sapiens with 72 samples.

Results

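NONHSAG021746.2, NONHSAG009471.2, NONHSAG010451.2, NONHSAG053897.2, NONHSAG066867.1 and NONHSAG115140.1 are 6 long non-coding RNA (lncRNA) genes of the NONCODE catalogue, out of 96411 lncRNA genes measured. They were chosen by measured values, as genes with the largest falls in MCF10A-M1 cells at 2 h or 8 h of TGF-β, so those falls describe the choice and carry no test. The study followed 3 human breast cell lines: M1, the non-malignant MCF10A line; M2, its derivative transformed with HA-Ras; and the triple negative breast cancer line MDA-MB-231. The cells were held overnight without serum and then received either TGF-β (5 ng/mL) or SB431542 (SB, 10 µM), an inhibitor of the type I TGF-β receptor kinase. RNA was taken at 0, 2, 8 and 24 h, with 3 libraries in each of the 24 groups and 72 libraries in all. The 0 h libraries of the TGF-β arm are non-stimulated controls. The first SB libraries are 0 h by title and 0.5 h by treatment label, and are called the earliest SB libraries here. TGF-β and SB were set against each other at the same hour and no group on vehicle alone at 2, 8 or 24 h is among the samples used here, so the 2 agents' contributions to such a difference cannot be told apart.

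TGF-β ligands bind a pair of receptor kinases that phosphorylate SMAD proteins, which enter the nucleus and raise or lower transcription together with partner factors. In mammary epithelial cells the pathway is known for growth arrest and for the shift toward a mesenchymal state, and Ras signalling is known to alter that outcome. Long non-coding RNAs are transcripts without an evident protein product; some act in chromatin, some in the cytoplasm, and most catalogued ones have no assigned role. No source used here pairs the 6 identifiers with a gene name, a position or a sequence, and 0 of 6 matched the RefSeq gene table, so their roles, sequences and genomic sites are not given. Cell identity and the TGF-β target genes could not be checked against protein-coding markers, which were not analysed here.

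Expression is in TPM (transcript abundance per length, scaled to a fixed total), which the authors computed over lncRNA genes alone. TPM keeps no sequencing depth, so counting error is unknown, and it weighs most on values under about 1 TPM. Libraries held 8458 to 16748 genes of at least 0.5 TPM (median 13174), and the 10 most abundant genes of a library took 56.7% to 78.8% of its TPM, which ties every other gene's TPM to a few abundant ones. Log2 differences were taken after adding 0.5 to each TPM value, so changes of low genes appear smaller than they are, and a gene is called at an adjusted p under 0.05 in limma over all genes tested. All 6 genes passed the filter on low values (3 or more libraries at 0.5 TPM or above) in every fit. As these are bulk cultures, fewer expressing cells and less RNA per cell cannot be told apart.

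Among the 20899 genes tested in M1, NONHSAG053897.2, NONHSAG066867.1 and NONHSAG115140.1 stood at places 1, 2 and 4 of the falls from 0 h to 2 h, with log2 differences of -3.07, -2.25 and -2.13. The genes left out at places 3 and 5 stood at -2.22 and -2.08, so the chosen genes and the next ones lay close together. From 0 h to 8 h, NONHSAG021746.2, NONHSAG009471.2 and NONHSAG010451.2 stood at places 1, 3 and 6, with -4.60, -2.78 and -2.54. Genes left out stood at -3.90 (place 2), -2.73 (place 4), -2.58 (place 5) and -2.51 (place 7). NONHSAG009471.2 was also at place 20 of the 2 h falls (-1.73), the only 1 of the 3 genes chosen at 8 h that was low by 2 h.

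NONHSAG115140.1 and NONHSAG009471.2 were already low at 2 h of TGF-β in all 3 M1 libraries. NONHSAG115140.1 had 13.7, 10.1 and 10.4 TPM at 0 h and 3.03, 2.58 and 1.29 TPM at 2 h of TGF-β. It then stood at 3.99, 5.93 and 4.16 TPM at 8 h and 4.15, 3.05 and 4.93 TPM at 24 h. Its lowest point was thus 2 h, and no TGF-β-treated library reached the lowest 0 h library. NONHSAG009471.2 had 29.9, 26.6 and 20.2 TPM at 0 h, then 7.69, 8.11 and 6.13 TPM at 2 h. It went on to 4.91, 2.49 and 2.74 TPM at 8 h and 2.74, 1.65 and 2.76 TPM at 24 h, so its mean was lower at each later hour. The mean level at 24 h was 10.7-fold under that at 0 h, from 25.6 ± 4.98 to 2.38 ± 0.631 TPM (SD, n = 3).

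NONHSAG053897.2, the most abundant of the 6, was unevenly low at 2 h and no longer low at 24 h. It had 35.9, 43.6 and 24.9 TPM at 0 h and 3.54, 23.3 and 0.212 TPM at 2 h of TGF-β. Replicate 2 at 2 h lay just under the lowest 0 h library, while replicate 3 was near 0. At 8 h it had 25.1, 29.1 and 5.71 TPM, again with 1 library far below the others. At 24 h it had 31.3, 31.0 and 43.9 TPM, within the range at 0 h apart from the highest library, which lay just above it. The SD at 2 h, 12.5 TPM, exceeded the mean of 9.03 TPM, and the first place of this gene among the 2 h falls rested on 2 of the 3 libraries.

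NONHSAG066867.1 was a low gene, listed at 0 in 24 of the 72 libraries. In M1 it had 1.77, 2.27 and 3.41 TPM at 0 h and 0, 0 and 0.423 TPM at 2 h of TGF-β. At 8 h it had 0.862, 0 and 0.511 TPM, and at 24 h it was listed at 0 in every library. The same low point appeared in the SB arm at 2 h, where it had 0, 0 and 0.440 TPM. The earliest SB libraries stood at 0.727, 0.638 and 0.947 TPM, all under the non-stimulated controls. At 2 h the mean levels of the TGF-β and SB libraries were therefore alike, at 0.141 ± 0.244 and 0.147 ± 0.254 TPM (SD, n = 3), with a log2 difference of -0.01 and a 95% confidence interval of -0.85 to 0.83. Its 2 h fall from the controls was not matched by a gap between the agents at that hour.

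NONHSAG021746.2 and NONHSAG010451.2 were still at their starting level at 2 h and were low at 8 h. NONHSAG021746.2 had 12.5, 8.88 and 14.1 TPM at 0 h and 6.93, 11.5 and 11.5 TPM at 2 h of TGF-β. It was listed at 0 in all 3 libraries at 8 h, and had 0.706, 0 and 0 TPM at 24 h. The 0 h and 2 h libraries overlapped, and none of the later 6 came near them. NONHSAG010451.2 had 2.74, 5.50 and 2.99 TPM at 0 h and 5.41, 3.02 and 2.84 TPM at 2 h. It was down at 0.422, 0.122 and 0.100 TPM at 8 h and stood at 0.0439, 1.46 and 0.634 TPM at 24 h. Both 2 h groups overlapped their controls, and the 24 h spread of NONHSAG010451.2 was as wide as its mean (0.713 ± 0.712 TPM, SD, n = 3).

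**Figure D1:**
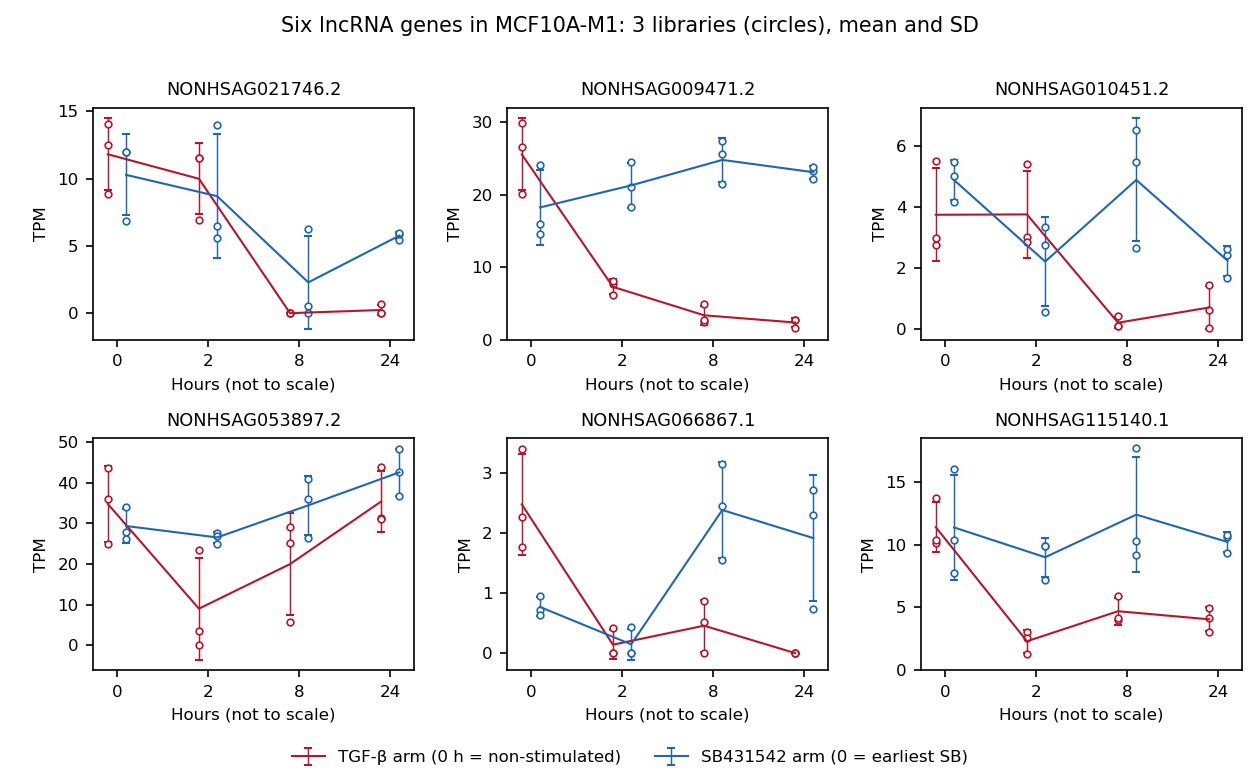
TPM of the 6 genes in M1 by hour (axis not to scale) in the TGF-β arm (red) and the SB arm (blue), with 3 libraries as circles and the mean and SD as lines and bars. NONHSAG115140.1 and NONHSAG009471.2 are low from 2 h, NONHSAG021746.2 and NONHSAG010451.2 from 8 h, and NONHSAG053897.2 is back at 31.0 to 43.9 TPM by 24 h.

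The SB arm of M1, which the choice of genes did not use, was compared with its own earliest libraries. At 2 h of SB, 0 of 6 genes were called in limma (2 had an unadjusted p under 0.05, both lower), where 0.0526% of all genes were called lower. At 24 h, 0 of 6 were called (1 had an unadjusted p under 0.05), beside 3.24% of all genes called lower. The 1 gene was NONHSAG010451.2, at 2.25 ± 0.492 TPM against 4.88 ± 0.665 TPM in the earliest SB libraries (SD, n = 3). With only the groups compared it was called lower (log2 difference -0.98, limma adjusted p 0.0385). Its SB libraries at 2 h and 24 h lay below all the earliest ones, while those at 8 h overlapped them. At 8 h, 1 of 6 was called lower, beside 1.81% of all genes. That gene was NONHSAG021746.2, at 6.82, 12.02 and 12.02 TPM in the earliest SB libraries and 0, 6.30 and 0.565 TPM at 8 h (log2 difference -2.77, SE 0.58, limma adjusted p 0.00728). Without replicate 1 of the 8 h group the limma adjusted p was 0.0631, and with only the groups compared it was 0.0951. At 24 h of SB it stood at 5.45, 5.91 and 5.94 TPM, below all the earliest SB libraries. That difference did not pass (log2 difference -0.74, SE 0.58, limma adjusted p 0.582). NONHSAG021746.2 was therefore under 1 TPM at 8 h in all 3 TGF-β libraries and in 2 of 3 SB libraries. At 24 h only the TGF-β libraries were under 1 TPM.

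NONHSAG009471.2 was the steadiest of the 6 in the SB arm of M1, at 14.6 to 27.4 TPM over 12 libraries. NONHSAG115140.1 ranged from 7.21 to 17.7 TPM there, and NONHSAG053897.2 from 25.0 to 48.3 TPM. None of these 12-library ranges reached the 2 h TGF-β values of its gene. For NONHSAG066867.1 the 8 h SB libraries, at 2.45, 3.16 and 1.56 TPM, lay above the earliest ones, but the difference did not pass (log2 difference 1.15, SE 0.40, limma adjusted p 0.128).

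In M1 the 24 h libraries took no part in the choice of genes, although the fit's residual spread includes the libraries that did. Choosing genes by falls at 2 h or 8 h of TGF-β in the same line favours lower TGF-β levels at 24 h. The comparison of TGF-β with SB at 24 h is thus not independent of the choice. In that comparison 5 of 6 genes were called lower under TGF-β than under SB, where 10.4% of all genes were, and with only the 24 h groups compared 4 of 6 were called. The median log2 difference of the 6 genes was -1.75, and that of all 20899 genes tested was -0.21. NONHSAG009471.2 had 2.74, 1.65 and 2.76 TPM under TGF-β and 23.3, 23.9 and 22.2 TPM under SB, a 9.70-fold lower mean (log2 difference -3.06, SE 0.23, limma adjusted p 1.96e-09). NONHSAG021746.2 had 0.706, 0 and 0 TPM against 5.45, 5.91 and 5.94 TPM (log2 difference -3.22, SE 0.58, limma adjusted p 0.000438). For both genes every TGF-β library lay far below every SB library. NONHSAG066867.1 was listed at 0 in all TGF-β libraries and had 2.72, 2.31 and 0.729 TPM under SB (log2 difference -2.16, SE 0.40, limma adjusted p 0.000602). NONHSAG115140.1 had 4.15, 3.05 and 4.93 TPM against 9.32, 10.6 and 10.7 TPM, a 2.52-fold lower mean (log2 difference -1.26, SE 0.28, limma adjusted p 0.00338). These 4 calls held in every alternative setting tried. NONHSAG010451.2 had 0.0439, 1.46 and 0.634 TPM against 2.44, 2.61 and 1.69 TPM (log2 difference -1.35, SE 0.46, limma adjusted p 0.0498). Its libraries did not overlap, but the call ended in 11 of 15 alternatives, with limma adjusted p from 0.0167 to 0.283. NONHSAG053897.2 had 31.3, 31.0 and 43.9 TPM against 48.3, 42.6 and 36.7 TPM, which overlapped (log2 difference -0.27, 95% confidence interval -1.77 to 1.23, limma adjusted p 0.863). Of all genes called in this comparison 71.3% were lower, and that share was 42.7% to 60.9% under the other scalings.

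At the earlier hours the TGF-β and SB libraries of M1 are described without a test, since the TGF-β libraries chose the genes. At 2 h the mean of NONHSAG115140.1 was 3.92-fold lower under TGF-β than under SB, 2.30 ± 0.904 against 8.99 ± 1.54 TPM (SD, n = 3). That of NONHSAG009471.2 was 2.92-fold lower at 2 h, 7.31 ± 1.04 against 21.3 ± 3.09 TPM, and 7.35-fold lower at 8 h, 3.38 ± 1.33 against 24.8 ± 3.05 TPM (SD, n = 3). NONHSAG010451.2 at 8 h had 0.100 to 0.422 TPM under TGF-β and 2.64 to 6.53 TPM under SB. The 8 h SB libraries of NONHSAG021746.2 overlapped the TGF-β ones, as both held a library listed at 0.

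In M2, 1 of the 6 genes was called lower at 2 h of TGF-β against the non-stimulated controls, beside 0.224% of all genes. NONHSAG009471.2 went from 15.5, 10.6 and 18.9 TPM to 1.39, 5.33 and 6.78 TPM, a 3.33-fold lower mean (log2 difference -1.81, SE 0.35, limma adjusted p 0.00909). The groups did not overlap. The call ended without replicate 1 of the 2 h group (limma adjusted p 0.0565), without replicate 3 at 0 h (0.0505), with a scaling total that omits the 10 most abundant genes (0.104) and with only the groups compared (0.233). NONHSAG115140.1 had 9.83, 3.71 and 8.33 TPM at 0 h and 3.39, 2.35 and 1.17 TPM at 2 h. These groups did not overlap either, but the difference did not pass (log2 difference -1.46, SE 0.44, limma adjusted p 0.152). At 8 h, 0 of 6 were called against 0 h in limma (1 had an unadjusted p under 0.05), beside 2.21% of all genes called lower.

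Against SB at the same hour in M2, 0 of 6 were called at 2 h in limma (1 had an unadjusted p under 0.05), beside 0.106% of all genes called lower. The 1 gene was NONHSAG009471.2, with 13.6, 7.12 and 7.46 TPM under SB, just above the TGF-β libraries (log2 difference -1.14, SE 0.35, limma adjusted p 0.0626, called in 4 of 15 alternatives). The median log2 difference of all genes was 0.27 in this comparison. It was 0.00 under median-of-ratios scaling and -0.02 under quantile normalization, where the gene was called (limma adjusted p 0.013 and 0.0152). With a scaling total that omits the 10 most abundant genes the median was 0.20, and the gene was not called. At 8 h NONHSAG009471.2 had 9.03, 7.24 and 12.2 TPM under TGF-β and 23.1, 24.8 and 21.7 TPM under SB. It was the 1 of 6 called lower at that hour, where 0.885% of all genes were (log2 difference -1.28, SE 0.35, limma adjusted p 0.026). Leaving out replicate 1, 2 or 3 of the SB group or replicate 2 of the TGF-β group ended this call, as did testing without a filter and a scaling total that omits the 10 most abundant genes (limma adjusted p 0.0535 to 0.134 over these 6 settings). At 24 h, 2 of 6 were called lower, beside 7.55% of all genes. From their 24 h SB levels, NONHSAG021746.2, NONHSAG066867.1 and NONHSAG115140.1 could differ by no more than -0.77, -0.29 and -1.12 on this scale. These genes thus had little room for a call. The libraries of both arms at that hour were low in genes of at least 0.5 TPM, with 8458 to 10138 under TGF-β and 9261 to 9342 under SB. NONHSAG009471.2 had 3.81, 4.25 and 4.27 TPM under TGF-β and 31.4, 30.2 and 33.7 TPM under SB, a 7.73-fold lower mean (log2 difference -2.81, SE 0.35, limma adjusted p 2.86e-06). The gap was wide and held in every alternative setting. NONHSAG010451.2 had 0, 0.0414 and 0 TPM against 1.27, 1.36 and 0.677 TPM (log2 difference -1.61, SE 0.51, limma adjusted p 0.0436). Its call ended in 8 of 15 alternatives. Among these were a pseudocount of 1, no filter, and leaving out replicate 1 or 2 under SB or any 1 of the TGF-β replicates (limma adjusted p 0.1 to 0.154 over these 7).

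All 6 genes were called lower in M2 between 0 h and 24 h of TGF-β, but so were 45.1% of all genes, whose median log2 difference was -0.74. Under each of 3 other scalings 3 of the 6 were called lower, beside 16.3% to 21.5% of all genes. NONHSAG115140.1, NONHSAG021746.2 and NONHSAG010451.2 were called in every setting that tested them. NONHSAG115140.1 ended at 0.340, 0 and 0.682 TPM (log2 difference -3.20, SE 0.44, limma adjusted p 2.99e-06). NONHSAG021746.2 was listed at 0 in all 24 h libraries, from 1.53, 0.820 and 5.29 TPM (log2 difference -2.32, SE 0.60, limma adjusted p 0.00311). NONHSAG010451.2 ended at 0, 0.0414 and 0 TPM, from 0.411, 2.00 and 3.13 TPM (log2 difference -1.98, SE 0.51, limma adjusted p 0.00317). These 3 genes were at or near 0 in every 24 h library of the arm. Those libraries held 8458, 8645 and 10138 genes of at least 0.5 TPM, and the 0 h libraries 12533 to 14232, and the part of this in the low values was not tested. NONHSAG009471.2 (log2 difference -1.71, limma adjusted p 0.000331) was not called under any of the 3 scalings, where its log2 difference lay between -1.11 and -0.68. NONHSAG053897.2, from 28.8, 36.9 and 29.7 TPM to 13.4, 17.3 and 12.3 TPM, differed by -1.13 (limma adjusted p 0.00131), and by -0.49 to -0.04 under those scalings, where it was not called. NONHSAG066867.1, listed at 0 in all 24 h libraries, differed by -1.43 (limma adjusted p 0.0327), a call that ended in 10 of 14 alternatives.

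The SB arm of M2 moved as well: 2 of 6 genes were called lower at 24 h than in the earliest SB libraries, beside 35.2% of all genes, and 1 was called higher, beside 2.01%. Under each of the 3 other scalings 1 of 6 was called lower, beside 5.18% to 9.75% of all genes, and 1 higher. With only the groups compared, NONHSAG021746.2 (log2 difference -1.30, limma adjusted p 0.00943) and NONHSAG010451.2 (log2 difference -1.10, limma adjusted p 0.028) were also called lower. NONHSAG115140.1 went from 5.29, 4.68 and 10.1 TPM to 0.428, 0.277 and 1.27 TPM (log2 difference -2.65, SE 0.44, limma adjusted p 7.5e-05). Its level in M2 was thus low at 24 h under either agent, and the 24 h libraries of the 2 arms overlapped (log2 difference -0.46, SE 0.44, limma adjusted p 0.69). NONHSAG053897.2 went from 56.5, 37.0 and 35.9 TPM to 17.4, 22.6 and 12.6 TPM (log2 difference -1.28, SE 0.26, limma adjusted p 0.00071), and was not called under the 3 other scalings (-0.65 to -0.39). NONHSAG009471.2 moved the other way, from 13.4, 18.1 and 17.1 TPM to 31.4, 30.2 and 33.7 TPM, a 1.96-fold higher mean (log2 difference 0.96, SE 0.35, limma adjusted p 0.0327). Under the 3 other scalings the log2 difference was 1.59 to 1.86 and the gene was called under each. The call ended without a filter (0.08) and without replicate 1 or 3 of the earliest SB libraries or any 1 of the 24 h SB replicates (limma adjusted p 0.0617 to 0.0938). Non-stimulated and earliest SB libraries of M2 gave 0 of 6 calls in limma, with 0 at an unadjusted p under 0.05, and 0% of all genes called lower.

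**Figure D2:**
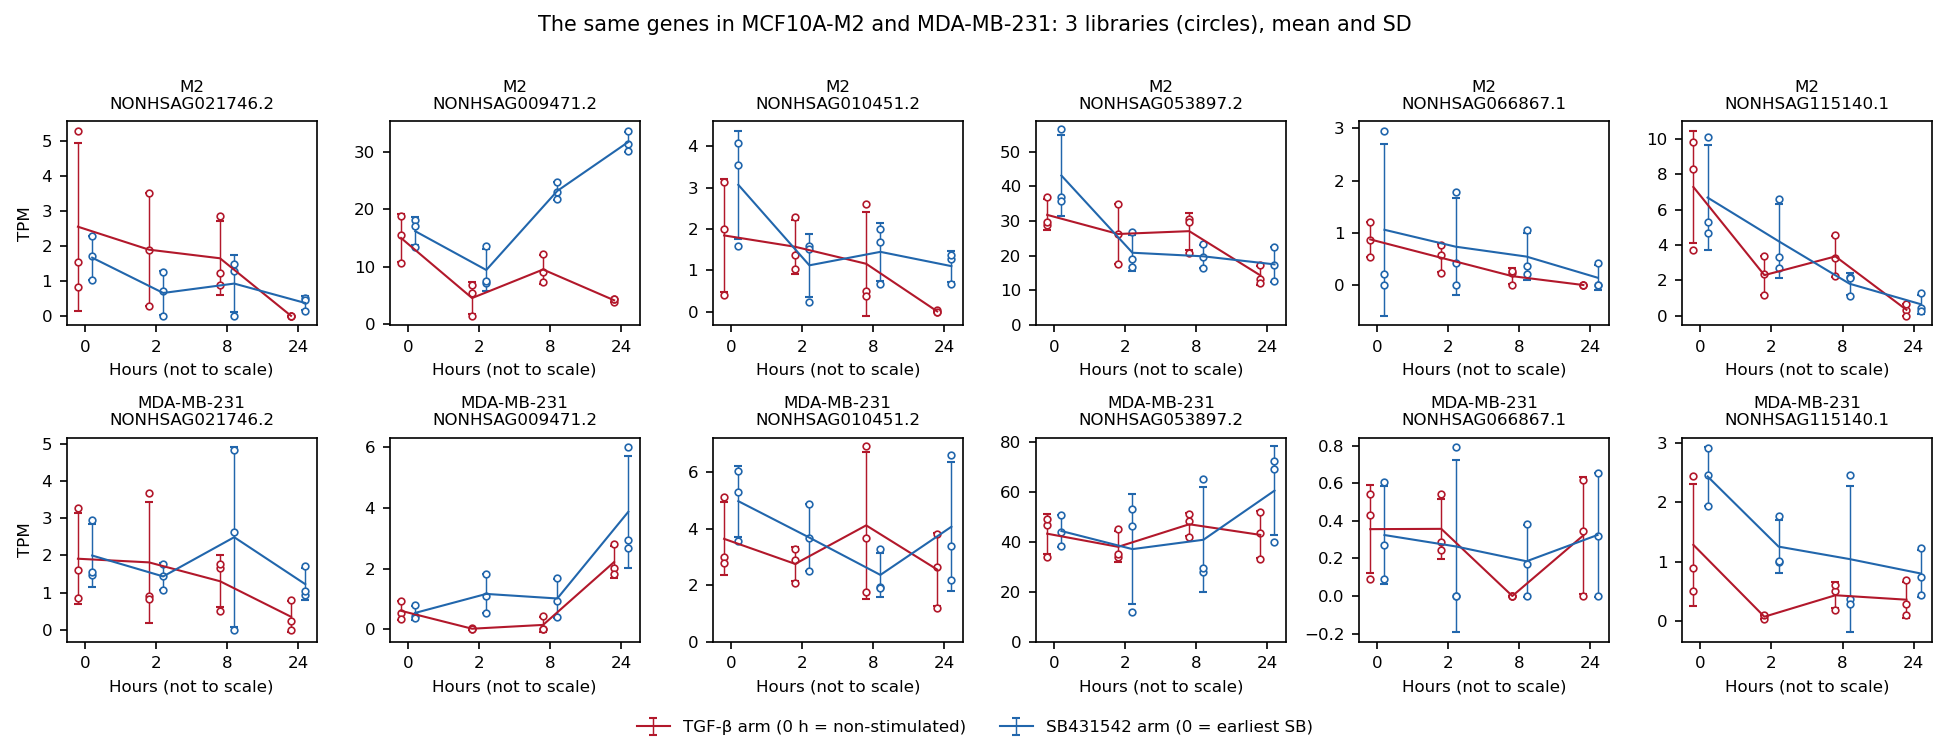
TPM of the 6 genes in M2 (top) and MDA-MB-231 (bottom) by hour (axis not to scale), in the TGF-β arm (red) and the SB arm (blue), with 3 libraries as circles and the mean and SD as lines and bars; each panel has its own scale. In M2 the arms of NONHSAG009471.2 part to 3.81 to 4.27 and 30.2 to 33.7 TPM at 24 h, while NONHSAG115140.1 is low in both.

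MDA-MB-231 expressed NONHSAG009471.2 near the floor, at 0 to 6.001 TPM over 24 libraries, so its early differences there rest on values around 1 TPM. It had 0.550, 0.323 and 0.944 TPM in the non-stimulated controls, 0, 0.0469 and 0 TPM at 2 h of TGF-β and 0.424, 0 and 0 TPM at 8 h. At 24 h of TGF-β it stood at 2.01, 1.82 and 2.81 TPM, above every control. In the SB arm it went from 0.807, 0.441 and 0.364 TPM to 6.001, 2.68 and 2.93 TPM at 24 h. The 2 h TGF-β libraries lay below every control and the 8 h ones overlapped them, and neither difference from the controls passed (limma adjusted p 0.211 and 0.29).

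In tests of MDA-MB-231 against the non-stimulated controls, 0 of 6 genes were called lower at 2 h in limma (2 had an unadjusted p under 0.05), beside 0.211% of all genes. At 8 h, 0 of 6 were called (1 had an unadjusted p under 0.05), beside 0.689% of all genes called lower. At 24 h, 0 of 6 were called lower (2 had an unadjusted p under 0.05), beside 4.36%, and 1 was called higher, beside 1.23%. The gene called higher was NONHSAG009471.2 (log2 difference 1.32, SE 0.36, limma adjusted p 0.0339). Its call ended with a pseudocount of 0.1, without a filter, with only the groups compared, and without replicate 1 or 2 of the controls or any 1 of the 24 h replicates (limma adjusted p 0.0538 to 0.153 over these 8 settings). These 3 comparisons share the control libraries. At 24 h of SB against the earliest SB libraries, 0 of 6 were called lower (1 had an unadjusted p under 0.05), beside 1.01% of all genes, and 1 was called higher, beside 0.882%. NONHSAG009471.2 was again the gene called higher (log2 difference 2.02, SE 0.36, limma adjusted p 0.00329), in every alternative setting.

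Against SB at 2 h in MDA-MB-231, 1 of 6 was called lower, beside 0.652% of all genes. With the replicate number as a block, 1 of 6 was again called, while the count of all genes called went from 189 to 332. The 2 h TGF-β libraries held 11954, 10455 and 11191 genes of at least 0.5 TPM. The 2 h SB libraries held 13125, 11828 and 12627, and the part of this difference in the low values was not tested. NONHSAG009471.2 had 0, 0.0469 and 0 TPM under TGF-β and 1.11, 0.547 and 1.83 TPM under SB (log2 difference -1.61, SE 0.36, limma adjusted p 0.0265). The call ended with a pseudocount of 1, without a filter, with only the groups compared, and without replicate 1 or 3 under SB or any 1 of the TGF-β replicates (limma adjusted p 0.0505 to 0.178 over these 8 settings). NONHSAG115140.1 had 0.0885, 0.0402 and 0.100 TPM under TGF-β and 0.992, 1.01 and 1.76 TPM under SB. Its libraries did not overlap and the difference missed the threshold (log2 difference -1.58, SE 0.42, limma adjusted p 0.065), while 5 of 14 alternatives called it. At 8 h, 0 of 6 were called in limma (1 had an unadjusted p under 0.05), beside 0.266% of all genes called lower. At 24 h, 0 of 6 were called (0 had an unadjusted p under 0.05), beside 3.74%. From their 24 h SB levels, NONHSAG021746.2, NONHSAG066867.1 and NONHSAG115140.1 could differ by no more than -1.76, -0.64 and -1.34 on this scale. That limits what the count can show for these genes. Non-stimulated and earliest SB libraries gave 0 of 6 calls in limma, with 0 at an unadjusted p under 0.05, and 0% of all genes called lower.

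The other members showed no call within MDA-MB-231. NONHSAG010451.2 ranged from 1.20 to 6.92 TPM over its 24 libraries and NONHSAG053897.2 from 11.8 to 72.4 TPM. NONHSAG053897.2 again had single low libraries, such as 11.8 TPM at 2 h of SB beside 52.9 and 46.4 TPM in the other replicates. NONHSAG021746.2 stayed at or under 4.83 TPM, and at 24 h had 0.813, 0 and 0.239 TPM under TGF-β and 0.928, 1.72 and 1.03 TPM under SB (log2 difference -1.11, 95% confidence interval -2.37 to 0.15, limma adjusted p 0.268). NONHSAG066867.1 stayed under 0.8 TPM in every library.

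**Figure D3:**
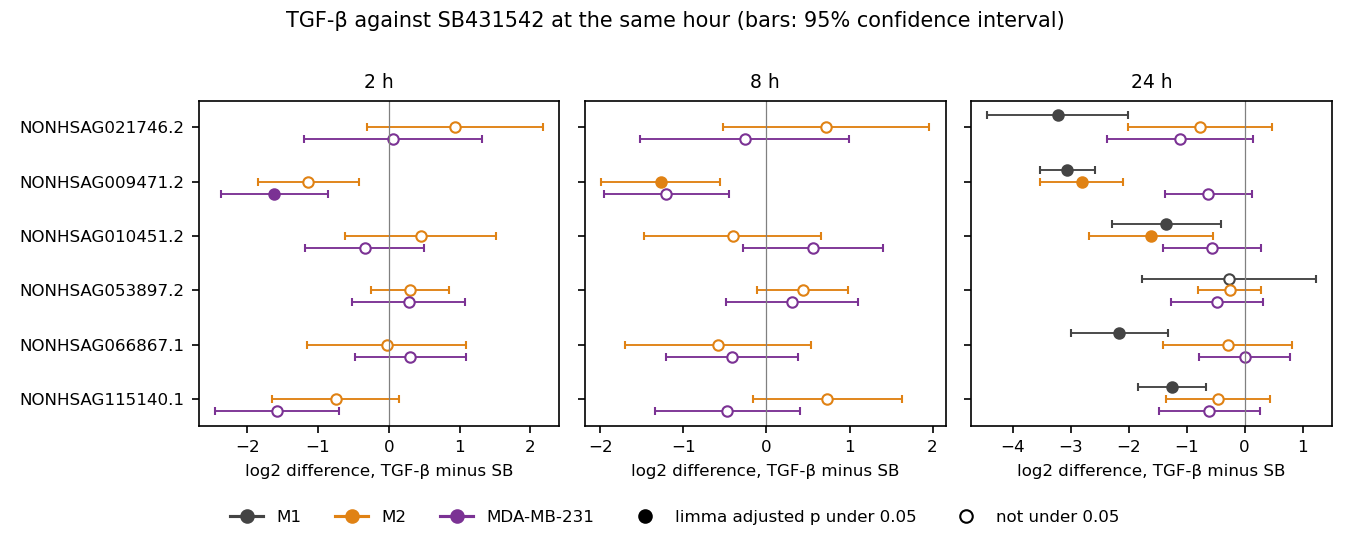
Log2 difference of TGF-β minus SB at 2, 8 and 24 h for the 6 genes in M2 and MDA-MB-231, and at 24 h in M1 (its 2 h and 8 h libraries chose the genes and are left out), with bars for the unadjusted 95% confidence interval and filled points for a limma adjusted p under 0.05. At 24 h NONHSAG009471.2 lies at -3.06 (M1), -2.81 (M2) and -0.63 (MDA-MB-231).

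The 24 h difference between TGF-β and SB was compared between lines by interaction terms. Choosing genes by falls in M1 favours a larger difference in M1 than in another line, so these interactions are not independent of the choice. Between M2 and M1, 0 of 6 genes differed in limma (2 had an unadjusted p under 0.05). Beside them, 0.837% of all genes were called higher and 1.29% lower. NONHSAG009471.2 differed by 0.25 (95% confidence interval -0.62 to 1.12, limma adjusted p 0.906). For NONHSAG021746.2 the interaction was 2.46 (SE 0.88, limma adjusted p 0.185) and for NONHSAG066867.1 it was 1.86 (SE 0.70, limma adjusted p 0.218), and both passed with only the groups compared (0.0094 and 0.0494). From their SB levels in M2, these genes could differ by no more than -0.77 and -0.29 on this scale, so neither could have shown the difference seen in M1. Between MDA-MB-231 and M1, 2 of 6 interactions were called higher, beside 1.64% of all genes. They were NONHSAG009471.2 (2.43, SE 0.44, limma adjusted p 0.000238) and NONHSAG066867.1 (2.16, SE 0.56, limma adjusted p 0.014). NONHSAG066867.1 could differ by no more than -0.64 from its SB level in MDA-MB-231, so it could not have shown the -2.16 of M1. Its measured difference in MDA-MB-231 was 0.00, and the part of the starting level in its interaction was not tested. For NONHSAG009471.2 the limit there was -3.05, close to the -3.06 measured in M1. The M1 24 h libraries are shared by these comparisons.

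In the earliest SB libraries the lines differed in 3 of the 6 genes. A large fall in M1 needs a high starting level there, so the tests against M1 are not independent of the choice of genes. NONHSAG009471.2 stood at 18.3 ± 5.16 TPM in M1, 16.2 ± 2.47 TPM in M2 and 0.537 ± 0.237 TPM in MDA-MB-231 cells (SD, n = 3). The M1 and M2 libraries overlapped, and MDA-MB-231 was 34.0-fold under M1 (log2 difference -4.17, SE 0.31, limma adjusted p 2.47e-14) and 30.1-fold under M2 (-4.02, SE 0.36, limma adjusted p 6.06e-12). NONHSAG021746.2 stood at 10.3 ± 3.00 TPM in M1, above 1.66 ± 0.629 TPM in M2 (log2 difference -2.32, SE 0.63, limma adjusted p 0.00803) and 1.99 ± 0.833 TPM in MDA-MB-231 (log2 difference -2.12, SE 0.64, limma adjusted p 0.00688). With a pseudocount of 0.1 neither difference passed (limma adjusted p 0.0756 and 0.0656). NONHSAG115140.1 stood at 11.4 ± 4.21 TPM in M1, 6.69 ± 2.97 TPM in M2 and 2.44 ± 0.492 TPM in MDA-MB-231, and MDA-MB-231 was lower than M1 (log2 difference -1.97, SE 0.37, limma adjusted p 4.11e-05). Its difference between MDA-MB-231 and M2 (-1.23, SE 0.44, limma adjusted p 0.0272) lost its call in 6 of 15 alternatives, among them those without M2 replicate 3 (0.161) and without MDA-MB-231 replicate 1 (0.0562) or replicate 2 (0.0934). In counts, 1 of 6 genes was called lower in M2 than in M1 (14.4% of all genes), 3 of 6 in MDA-MB-231 than in M1 (30% of all genes) and 2 of 6 in MDA-MB-231 than in M2 (19.6% of all genes). NONHSAG010451.2, NONHSAG053897.2 and NONHSAG066867.1 were not called between lines in the fit as reported. In single alternatives, NONHSAG010451.2 was called higher in MDA-MB-231 than in M2 with a scaling total that omits the 10 most abundant genes (log2 difference 1.20, limma adjusted p 0.0383). NONHSAG053897.2 was called higher in MDA-MB-231 than in M1 with only the groups compared (log2 difference 0.59, limma adjusted p 0.00997).

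Ordered by mean TPM over the 24 groups, each gene had a different span. NONHSAG009471.2 was highest in M2 at 24 h of SB (31.8 ± 1.80 TPM) and lowest in MDA-MB-231 at 2 h of TGF-β (0.0156 ± 0.0271 TPM). NONHSAG021746.2 was highest in non-stimulated M1 (11.8 ± 2.66 TPM), and NONHSAG066867.1 likewise (2.48 ± 0.844 TPM). NONHSAG115140.1 was highest in M1 at 8 h of SB (12.4 ± 4.60 TPM), NONHSAG010451.2 in MDA-MB-231 in the earliest SB libraries (4.97 ± 1.26 TPM) and NONHSAG053897.2 in MDA-MB-231 at 24 h of SB (60.5 ± 17.8 TPM). Of the 23 pairs of neighbours in that order, the libraries overlapped in 22 for NONHSAG021746.2, NONHSAG009471.2 and NONHSAG010451.2 and in all 23 for the other genes, so most neighbours in the order cannot be separated by their libraries.

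The 6 genes did not follow a single course. Over the 24 group means of log2(TPM + 0.5), Pearson correlations between pairs of them ranged from -0.279 (NONHSAG009471.2 with NONHSAG053897.2) to 0.676 (NONHSAG009471.2 with NONHSAG115140.1). These are descriptions over groups that share lines and treatments. Among 10725 other genes averaging 1 TPM or more, the gene most like NONHSAG009471.2 was NONHSAG009470.2 (r = 0.988 over 24 group means), and the gene most like NONHSAG115140.1 was NONHSAG115142.1 (r = 0.975). NONHSAG009470.2 had 24.0, 25.3 and 25.7 TPM in non-stimulated M1 and 5.02, 8.81 and 9.39 TPM at 2 h of TGF-β. In M2 at 24 h it had 4.38, 5.14 and 9.09 TPM under TGF-β and 38.6, 44.5 and 45.0 TPM under SB. It thus parted by agent as NONHSAG009471.2 did. Both similar genes were picked by likeness over these same groups, so their values describe that choice. NONHSAG115142.1 had 23.6, 12.99 and 17.5 TPM in non-stimulated M1 and 6.16, 5.43 and 9.61 TPM at 2 h of TGF-β, and in M2 it had 0.368, 1.35 and 1.62 TPM at 24 h of TGF-β and 1.45, 0.444 and 2.19 TPM at 24 h of SB. Whether reads are shared between the genes of either pair was not tested, and no strand setting is given in the sources used here. The highest correlations of the remaining members with any other gene were 0.764 to 0.896.

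**Figure D4:**
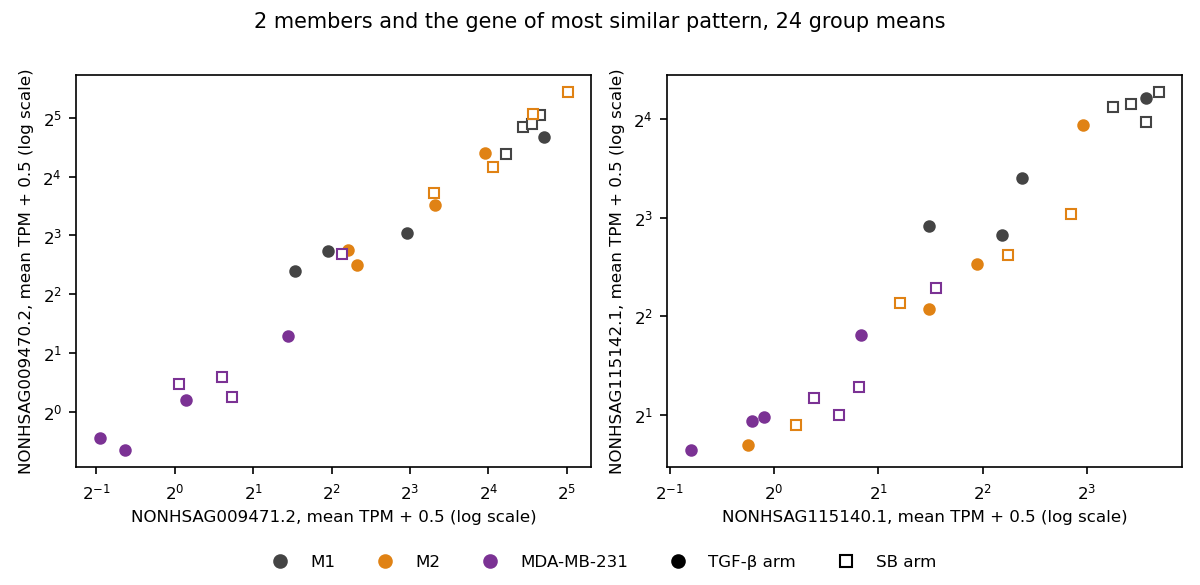
Mean TPM + 0.5 (both axes on a log2 scale) of NONHSAG009471.2 against NONHSAG009470.2 (left) and of NONHSAG115140.1 against NONHSAG115142.1 (right) in the 24 groups, coloured by line, with filled circles for the TGF-β arm and open squares for the SB arm. The points follow a line in both panels. The correlations (r = 0.988 and 0.975) were computed on group means of log2(TPM + 0.5), not on the mean TPM drawn here.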

How the data were processed

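Total RNA was extracted with TRIzol and sequenced on Illumina instruments, per the labels' protocols. Per the submitters' processing notes the tools were StringTie 1.3.6, HISAT2 2.2.0, cutadapt 2.10 and FastQC on GRCh38. Strand handling, filters and the annotation release were not given in the sources used here. TPM for 96411 lncRNA genes were deposited in 72 columns, each matched to a sample by its label. The series' design text speaks of 36 samples, where 72 are listed.

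Log2(TPM + 0.5) was tested with limma 3.58.1 (eBayes with trend, two-sided) in R 4.3.3, reading with the data.table package (version 1.17.8). Fits used the 24 libraries of a line, or 48 for 2 lines, with Benjamini-Hochberg adjustment over all genes passing the filter. Of 31 comparisons, 25 were tested; the other 6 use M1 libraries that chose the genes and carry no p. The members and lists were chosen with earlier results of these data known; every member is named, with the 2 non-members of most similar pattern. The triplicates are called biological in the design text; unless they are separate cultures, the p-values reflect sample-to-sample spread that may be technical.

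Same-numbered replicates had deviations from their group means correlated at -0.0993 to 0.136 over 26 pairs of groups, and all 3 pairs exceeded 0.1 in only 1 (MDA-MB-231, TGF-β and SB at 2 h), where a block changed no member's call and moved the count of all genes called from 189 to 332. Alternatives were pseudocounts of 0.1 and 1, a filter on a mean of 1 TPM and none at all, 3 other scalings (median-of-ratios, a total without the 10 most abundant genes, quantile normalization), the replicate block, only the groups compared, and leaving out each library. The fits were tested on simulated data.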

Additional observations from a re-analysis of the deposited data

Results flagged for a closer look

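For 2 genes the interaction of line with the 24 h difference between TGF-β and SB passed the test between MDA-MB-231 and M1. The choice of genes by falls in M1 favours such an interaction. For NONHSAG009471.2 the log2 difference was -0.63 in MDA-MB-231 and -3.06 in M1, and the interaction of 2.43 (limma adjusted p 0.000238) passed in all 21 alternatives. For NONHSAG066867.1 it was 0.00 in MDA-MB-231 and -2.16 in M1, and the interaction of 2.16 (limma adjusted p 0.014) did not pass with only the groups compared (0.0527), without M1 SB replicate 1 (0.0567), without MDA-MB-231 SB replicate 2 (0.0614) or without MDA-MB-231 TGF-β replicate 1 (0.0504). Under SB at 24 h NONHSAG009471.2 stood at 3.87 ± 1.85 TPM in MDA-MB-231 and 23.1 ± 0.880 TPM in M1, and NONHSAG066867.1 at 0.324 ± 0.327 and 1.92 ± 1.05 TPM (SD, n = 3). From these SB levels in MDA-MB-231 the scale allows a difference of at most -0.64 for NONHSAG066867.1, which could not have shown the -2.16 of M1 there. For NONHSAG009471.2 the limit was -3.05. The part of the starting level in either interaction was not tested.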

How the results depend on the processing

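Over 2275 recomputed member values, 2172 kept their side of the threshold (an uncalled value that stayed uncalled counts as kept, whatever its sign), 84 lost a call, 19 gained one and none of the called values reversed. The cause of the changes was not tested. Counts of members called moved by over 1.5 times as follows. A pseudocount of 1 gave 1 (M2, TGF-β versus SB at 24 h) and 0 (MDA-MB-231, TGF-β versus SB at 2 h). A pseudocount of 0.1 gave 1 (MDA-MB-231, 2 h of TGF-β versus 0 h), 0 (MDA-MB-231, 24 h of TGF-β versus 0 h), 2 and 1 (MDA-MB-231, TGF-β versus SB at 2 h and 8 h), 0 (M2 versus M1, earliest SB) and 1 (MDA-MB-231 versus M2, earliest SB). No filter gave 0 (M2, TGF-β versus SB at 8 h), 1 (M2, the same at 24 h), 0 and 0 (MDA-MB-231, 24 h of TGF-β versus 0 h, and TGF-β versus SB at 2 h) and 1 (MDA-MB-231 versus M2). A mean of at least 1 TPM, which leaves out NONHSAG066867.1 in every fit but that of M1 alone, and NONHSAG115140.1 in that of MDA-MB-231 alone, gave 1 (M2, TGF-β versus SB at 2 h) and 1 (MDA-MB-231 minus M1). Median-of-ratios scaling and quantile normalization each gave 3 (M2, 24 h of TGF-β versus 0 h), 1 (M2, TGF-β versus SB at 2 h) and 2 (MDA-MB-231, TGF-β versus SB at 2 h). A total that omits the 10 most abundant genes gave 0, 3 and 0 in M2 (2 h and 24 h of TGF-β versus 0 h, and TGF-β versus SB at 8 h) and 2 in MDA-MB-231 (TGF-β versus SB at 2 h). Fitting only the groups compared gave 0 and 1 (M1, 8 h and 24 h of SB), 0 (M2, 2 h of TGF-β), 5 (M2, 24 h of SB), 0 (MDA-MB-231, 24 h of TGF-β), 2 (M2 minus M1) and 1 (MDA-MB-231 minus M1). Leaving out 1 library at a time gave 0 to 1 for 8 h of SB in M1, for 2 h of TGF-β and TGF-β versus SB at 2 h and at 8 h in M2, and for 24 h of TGF-β and TGF-β versus SB at 2 h in MDA-MB-231; it gave 1 to 2 for TGF-β versus SB at 24 h in M2, MDA-MB-231 minus M1, and MDA-MB-231 versus M2. The replicate block gave 1 in place of 2 for TGF-β versus SB at 24 h in M2 (NONHSAG010451.2, limma adjusted p 0.0501) and changed no other member's call; every library correlated best with its own number in 3 of 26 pairs of groups.

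The count of all genes called moved by over 1.5 times under some setting in 22 comparisons; the lowest and highest counts follow beside the count as reported. In M1 they were 1 and 28 beside 17 (2 h of SB), 439 and 1122 beside 770 (8 h) and 700 and 1430 beside 1097 (24 h). In M2 they were 41 and 236 beside 119, 411 and 1713 beside 824, and 4755 and 8574 beside 8365 (2, 8 and 24 h of TGF-β), 141 and 2942 beside 702, 505 and 1900 beside 1174, and 1161 and 3059 beside 1811 (TGF-β versus SB), 1328 and 6391 beside 6304 (24 h of SB) and 0 and 24 beside 2 (0 h). In MDA-MB-231 they were 48 and 326 beside 96, 83 and 556 beside 211, and 358 and 1351 beside 924 (TGF-β), 60 and 500 beside 189, 85 and 352 beside 155, and 201 and 1065 beside 726 (TGF-β versus SB), 106 and 825 beside 314 (24 h of SB) and 0 and 3 beside 0 (0 h). Between lines they were 309 and 1121 beside 466 (M2 minus M1), 2599 and 4732 beside 3976 (M2 versus M1) and 4362 and 8493 beside 7276 (MDA-MB-231 versus M2). Another scaling moved the share of lower genes among all calls by over 10 percentage points in 21 of 22 comparisons with at least 20 calls, such as from 91.5% to 49.8% for 24 h of TGF-β and from 94.6% to 47.4% for 24 h of SB in M2.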
